A study of Drosophila melanogaster with 2 samples.

Results

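The Mediator subunit genes were examined as sites of REPTOR binding in Drosophila melanogaster embryos. They were taken from the BDGP6 annotation as the protein-coding genes with the symbol MED and a number, together with skd, kto, CycC and Cdk8, which made 29 of the 13945 protein-coding genes on the main chromosome arms. The data came from chromatin immunoprecipitation and sequencing (ChIP-seq) with an antibody against GFP. There was 1 group of 2 biological replicates, numbered 1 and 3 in the labels, and no second condition. Each replicate was a collection of whole embryos aged 0 to 24 h, males and females together, from a transgenic line of the strain labelled CG13624-GFP, which stably expresses REPTOR (CG13624) with GFP at its C terminus. A control experiment that the labels list as possible was not analysed here. The promoter driving the transgene and the state of the endogenous gene are not given in the labels. Binding in a few cells and weak binding in many cells cannot be told apart in such material. Each peak has a signal computed by the authors' peak caller, and a rank by that signal, with rank 1 the highest. The optimal list, whose length the authors set by the reproducibility of the replicates, held the first 5321 of the calls made on both replicates together, with signals from 77.9 to 2773.

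Mediator is a large complex that carries information from DNA-bound transcription factors to RNA polymerase II. Its core is divided into a head and a middle, which touch the polymerase, and a tail, which many activators contact; MED14 runs through them as a scaffold, and MED27, MED28 and MED30 sit where head and tail meet. A separable kinase module of Cdk8, its cyclin CycC, kto (MED12) and skd (MED13) binds the core and controls its access to the polymerase. REPTOR, the protein pulled down here, is a bZIP transcription factor that is held in the cytoplasm while the TORC1 growth kinase is active.

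The DNA at the 4 strongest Mediator peaks, and at the peaks of MED10 and MED20, is shown for 101 bp centred on the summit. The summit is the base of highest signal within a peak. The windows of MED17, MED23 and Cdk8 also held a searched motif and are not shown. All sequences are from the plus strand of the Release 6 assembly (dm6). MED30, MED15, MED27 and MED7 had the highest signals of the 29 genes, and MED10 and MED20 had weak peaks with a Motif 1 core. Capitals mark a match, on either strand, to one of the searched motifs. These are the TATA box in MED27, the Motif 1 core in MED10, and, in order, a FOXO site and the Motif 1 core in MED20.
MED30, chr3L:654228-654328: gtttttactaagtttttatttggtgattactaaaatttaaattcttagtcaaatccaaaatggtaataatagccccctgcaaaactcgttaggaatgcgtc
MED15, chr2L:472404-472504: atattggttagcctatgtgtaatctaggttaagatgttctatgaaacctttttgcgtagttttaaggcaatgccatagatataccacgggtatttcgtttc
MED27, chr3R:5654915-5655015: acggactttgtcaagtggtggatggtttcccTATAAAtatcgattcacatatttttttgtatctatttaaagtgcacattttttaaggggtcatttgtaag
MED7, chr3R:10761035-10761135: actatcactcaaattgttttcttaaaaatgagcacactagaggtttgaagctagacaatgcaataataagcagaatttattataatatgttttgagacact
MED10, chr3L:16232010-16232110: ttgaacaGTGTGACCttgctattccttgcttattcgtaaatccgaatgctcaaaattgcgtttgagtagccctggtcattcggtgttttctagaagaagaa
MED20, chr2L:8072782-8072882: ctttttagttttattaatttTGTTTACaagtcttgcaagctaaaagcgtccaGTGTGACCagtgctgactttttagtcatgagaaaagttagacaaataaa
The first 4 windows had a GC content from 28.7 to 35.6%. The 13 Mediator windows ranged from 20.8 to 59.4%, with the highest value at MED6, and averaged 36.5% against 40.1% at all 3784 promoter summits.

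REPTOR peaks were found at the promoters of 13 Mediator genes, where a promoter peak is one whose summit lay within 1000 bp of a transcription start site (TSS). These were MED4, MED6, MED7, MED10, MED15, MED16, MED17, MED20, MED23, MED27, MED30, skd and Cdk8. The share was 44.8% (13 of 29, exact 95% Clopper-Pearson interval 26.4 to 64.3), against 30.3% of all protein-coding genes (4226 of 13945), a background that lay inside the interval. Intervals cover counting error only and take genes as independent. Each of the 13 genes had a single promoter summit, and the 13 peaks were distinct. Of all genes with a promoter peak, 19.7% had more than 1 summit.

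Signals at the Mediator genes ran from 78.0 at MED20 to 533 at MED30. Their median was 146, with quartiles at 99.7 and 304, against a median of 138 and quartiles at 102 and 210 for the strongest promoter peak of all 4226 genes. The 1330 optimal peaks of highest signal held 6 of the 13 peaks (46.2%), against 31.7% for all genes. The 1330 of lowest signal held 3 (23.1%), against 18.7%. Among the 6, the summits at MED30, MED15, MED27 and MED6 lay nearer to the TSS of another gene, and those at MED7 and MED4 did not. By rank the Mediator peaks ran from 128 to 5310, and none reached the highest signals of the list.

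**Figure D1:**
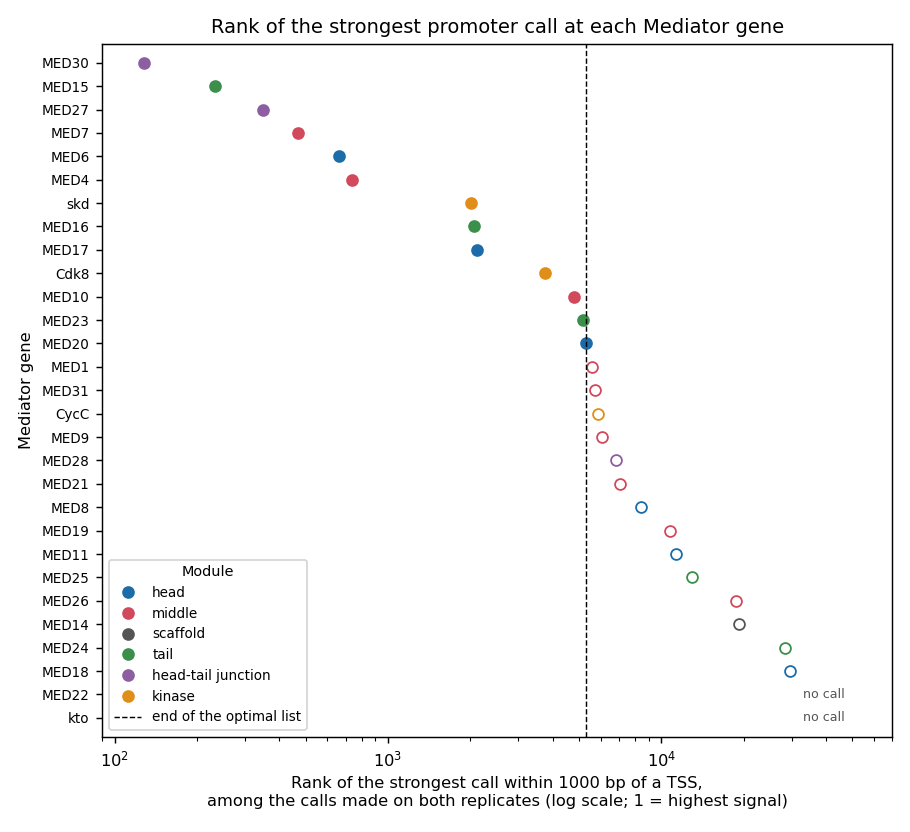
Rank of the strongest call within 1000 bp of a start site, in the list called on both replicates (x axis, log scale; 1 is the highest signal), for the 27 Mediator genes with such a call; MED22 and kto had none and have no point. Colours give the module, filled points lie in the optimal list, open points below it, and the dashed line marks rank 5321. MED30 stands highest at rank 128, MED20 lies at 5310 and MED1 is the first gene past the line at 5562.

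Most of these peaks lay between a Mediator gene and a second gene. A head-to-head neighbour, that is a protein-coding gene on the opposite strand whose TSS lay up to 1000 bp upstream, was present at 21 of 29 Mediator genes (72.4%), against 36.2% of all protein-coding genes. Of the Mediator genes with such a neighbour, 11 of 21 had a promoter peak (52.4%, exact 95% Clopper-Pearson interval 29.8 to 74.3), against 51.1% of all genes with one. Without a head-to-head neighbour, 2 of 8 had a promoter peak (25.0%, 3.19 to 65.1), against 18.5% of all such genes. In each layout the share of all genes lay inside the interval of the Mediator share. The 2 peaks without such a neighbour were those of MED4 and Cdk8.

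**Figure D2:**
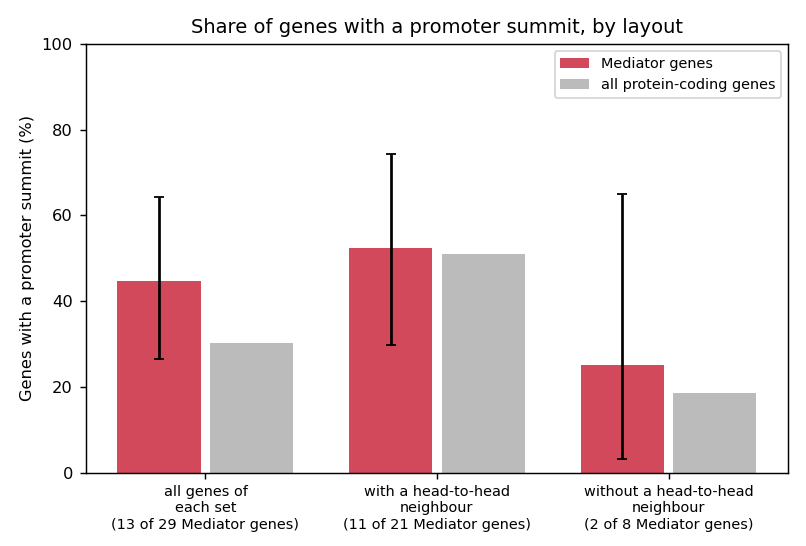
Share of genes with a promoter summit (y axis, percent) for Mediator genes (red, with exact 95% Clopper-Pearson intervals) and all protein-coding genes (grey), over all genes and split by the presence of a head-to-head neighbour within 1000 bp. The Mediator bars are 44.8, 52.4 and 25.0% and the grey bars 30.3, 51.1 and 18.5%.

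In 11 of the 13 Mediator genes (MED4 and Cdk8 apart) the strongest promoter peak was also the strongest of another gene, which was true of 60.0% of all genes with a promoter peak. When a summit counted only for the protein-coding gene nearest to it, 7 Mediator genes remained (24.1%), against 22.2% of all genes. These were MED4, MED7, MED16, MED17, MED20, MED23 and Cdk8. The peaks of MED6, MED10, MED15, MED27, MED30 and skd had summits nearer to Naa80, PDCD-5, CG4297, elm, Rev1 and Pdss2. The lists do not tell which gene of a pair a shared peak acts on.

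**Figure D3:**
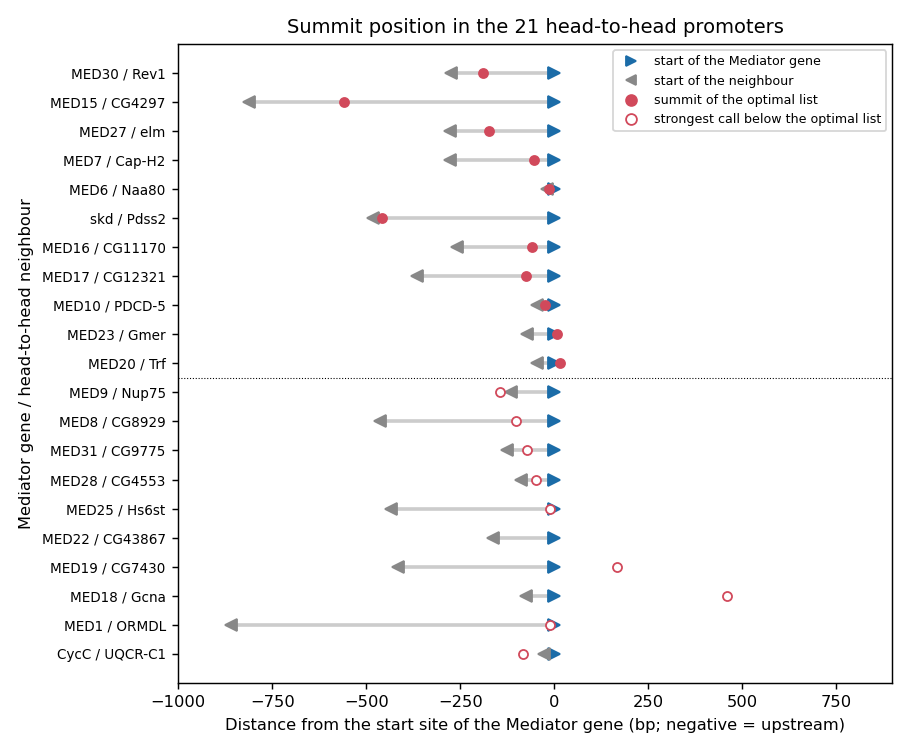
Layout of the 21 head-to-head promoters, with the start of the Mediator gene at 0, the start of its neighbour to the left, and the summit as a filled point (optimal list, 11 genes) or an open point (strongest call below that list); distances in bp, negative upstream. Rows above the dotted line are ordered by signal; the summits of MED15 and skd lie 559 and 459 bp upstream, and MED22 has no point because the calls made on both replicates together held none there.

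The 2 head-tail junction genes with a peak were among the strongest of all members. MED30 encodes a subunit found in animals and not in budding yeast. Its peak (3L, 654043 to 654450) had a signal of 533 at rank 128, with 264 in replicate 1 and 271 in replicate 3. The summit lay outside both genes, 189 bp upstream of MED30 and 85 bp upstream of Rev1, the gene of a translesion DNA polymerase. MED27 had a peak (3R, 5654840 to 5655184) with a signal of 343, rank 349, and 170 and 175 in replicates 1 and 3. Its summit was 174 bp upstream of MED27 and 104 bp upstream of elm. The third gene of this group, MED28, had no peak in the optimal list.

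Of the tail genes, 3 of 5 had a peak. MED15, whose product is a contact of activators in yeast and mammals, had a peak at 2L, 472293 to 472616. Its signal was 419 at rank 232, with 233 in replicate 1 and 189 in replicate 3. At 559 bp upstream its summit was the farthest from a TSS among the 13, and CG4297 began 254 bp from it on the other side. MED16 had a peak of 145 at rank 2056 (2R, 22183034 to 22183160), with 64.2 in replicate 1 and 81.8 in replicate 3. It lay 58 bp upstream of MED16 and 201 bp upstream of CG11170. MED23 had a peak of 79.4 at rank 5185 (2R, 22888718 to 22889153), close to the end of the list. Its replicate signals were 44.2 and 33.0, and its summit lay in the 5′ UTR, 8 bp inside the gene. MED24 and MED25 had none.

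Of the middle genes, 3 of 9 had a peak. MED7, which in yeast pairs with MED21 to form a hinge of the middle, had a signal of 304 at rank 467 (3R, 10760954 to 10761243), with 156 in replicate 1 and 145 in replicate 3. Its summit was 53 bp upstream, between MED7 and Cap-H2, the gene of a condensin II subunit. MED4 had a signal of 251 at rank 737 (3L, 7250603 to 7250786), with 125 and 123 in the replicates. Its summit lay 151 bp upstream of its only TSS, and no other protein-coding gene had a TSS within 1000 bp of it. MED10 had a signal of 84.3 at rank 4800 (3L, 16231842 to 16232277), with 38.2 and 40.8 in replicates 1 and 3. Its summit fell between the start sites of MED10 and PDCD-5, which are 46 bp apart.

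Of the head genes, 3 of 7 had a peak. MED6, whose product is needed for activated transcription in yeast, has 5 annotated TSSs. Its peak (3R, 9767712 to 9767932) had a signal of 264 and gave 117 in replicate 1 and 141 in replicate 3. The summit was in the 5′ UTR, 13 bp before the innermost TSS, and the peak ranked 660. Naa80, the gene of an actin acetyltransferase, starts 19 bp from that TSS, and the peak was not counted for MED6 when only its outermost TSS was used. MED17, a core subunit of the head, had a signal of 143 at rank 2124 (3R, 18188961 to 18189104), with 77.7 and 66.2 in replicates 1 and 3. Its summit was 75 bp upstream. MED20 had the weakest peak of the 13, with a signal of 78.0 at rank 5310 (2L, 8072614 to 8073049) and 36.1 and 31.7 in replicates 1 and 3. It was shared with Trf, which encodes a relative of the TATA-binding protein, and the start sites of the pair are 47 bp apart.

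In the kinase module, skd and Cdk8 had a peak while kto and CycC did not. The skd peak had a signal of 146 at rank 2016 (3L, 21027800 to 21027960), with 64.8 in replicate 1 and 81.1 in replicate 3. Its summit was 459 bp upstream of skd and 22 bp upstream of Pdss2, the gene of a subunit of the enzyme that makes the coenzyme Q side chain. Cdk8, the kinase of the module, had a signal of 99.7 at rank 3760 (3L, 9838502 to 9838937), with its summit 50 bp upstream. Its replicate signals of 60.2 and 40.0 corresponded to ranks 2883 and 5758, the widest ratio of ranks among the 13 genes. MED14, the scaffold gene, had no peak in the optimal list.

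The peaks lay close to start sites. The summit was within 100 bp of a TSS of the Mediator gene in 8 of 13 cases (61.5%), against 42.3% of all genes with a promoter peak, and within 200 bp in 11 (84.6%), against 64.3%. The median distance was 58.0 bp at the Mediator genes and 130 bp over all genes. These values rest on 13 Mediator genes, have no interval and were not split by head-to-head layout. The summit was upstream of the nearest TSS of the gene at 11 of 13 (84.6%), against 79.2% of all genes. The exceptions were MED20 and MED23, with summits 16 and 8 bp downstream. The MED6 summit was upstream of its nearest TSS but lay inside the gene, in the 5′ UTR. No Mediator summit lay between 559 bp, the distance at MED15, and the window edge at 1000 bp. The nearest summits outside the window were a second one at skd, 1145 bp inside the gene with a signal of 86.7, and those at MED6 and MED7, 1223 and 1228 bp upstream with signals of 100 and 105.

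Some of the 16 Mediator genes without a promoter peak had a call just below the end of the optimal list. In the 30000 calls made on both replicates, from which the optimal list took the first 5321, 7 of these genes had a promoter call ranked up to 10000 (43.8%), against 19.2% of all 9719 genes without a promoter peak. The first past the end was MED1, a middle gene whose product contacts nuclear receptors in mammals, with a pooled signal of 75.3 at rank 5562. It was followed by MED31 (74.2), CycC (72.9), MED9 (70.4), MED28 (64.9), MED21 (63.0) and MED8 (54.8). The deposited −log10 q values of these 7 pooled calls ran from 1.99 at MED8 to 3.36 at MED31. The last optimal member, MED20, had 78.0, so the step from the last gene inside to the first outside was small. Over the first 10000 calls, a limit chosen after these ranks were seen, 20 of 29 Mediator genes (69.0%) had a promoter call, against 43.7% of all genes. Of Mediator genes with a head-to-head neighbour, 17 of 21 had such a call (81.0%), and of those without, 3 of 8 (37.5%). Of the 7 genes listed above, all but MED21 had a head-to-head neighbour. The shares of all genes in this paragraph were not split by layout.

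Some of these calls below the list ranked far apart in the replicates and others did not. MED9 ranked 11759 in replicate 1 and 3896 in replicate 3, and MED1 ranked 9192 and 4919. CycC ranked 4808 in replicate 1 and 6753 in replicate 3, and MED31 ranked 4963 and 6293. The stronger replicate 3 call at MED31 lay farther upstream than the replicate 1 call, past the start of its neighbour CG9775. Each of these 4 genes had a call within the first 5321 of 1 replicate only. MED21 ranked 9755 and 8706, MED28 ranked 5642 and 8950, and MED8 ranked 7961 and 11318.

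The remaining 9 genes had weak calls or none. MED19, whose product works with Hox proteins in the fly, had a pooled call of 44.7 at rank 10783, MED11 one of 42.9 at 11330 and MED25 one of 38.7 at 12956. MED26, MED14, MED24 and MED18 had pooled ranks from 18670 to 29438 and deposited −log10 q values from 0.20 to 0.49. MED22 had no pooled call in the window and 1 call in replicate 1, at rank 26726. For kto there was also none, and none in replicate 1, whereas replicate 3 had 2 overlapping calls there, the stronger with a signal of 58.6 at rank 3191, 37 bp upstream of the TSS. Counting all 30000 pooled calls, 27 of 29 Mediator genes had a promoter call, against 62.1% of all genes; that list includes background calls.

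Replicate ranks of the Mediator peaks were about as close as those of all genes. MED30 ranked 123 in replicate 1 and 129 in replicate 3, MED15 ranked 186 and 285, and MED27 ranked 370 and 352, while the weak peak of MED10 ranked 5595 and 5568. Over the 13 genes the median ratio of the larger to the smaller rank was 1.35, against 1.42 for all 4216 genes whose strongest promoter peak overlapped a call in both replicates. In both replicates, 9 of the 13 peaks (69.2%) ranked within the first 5321, against 81.6% of all genes. The exceptions were Cdk8 and MED23, which ranked 5758 and 7583 in replicate 3, and MED10 and MED20, which ranked past 5321 in each. Replicate 1 gave the better rank at 8 of the 13 genes and replicate 3 at 5.

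**Figure D4:**
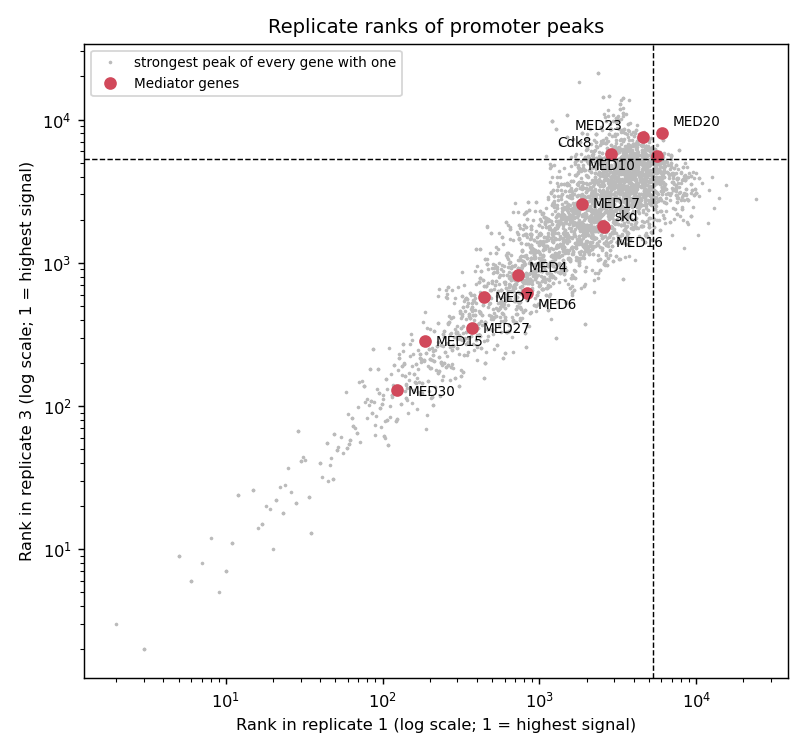
Rank of each gene's strongest promoter peak in replicate 1 (x axis) and replicate 3 (y axis), both on log scales with 1 the highest signal; grey points are all genes with a promoter peak and a call in both replicates, red points the 13 Mediator genes, and dashed lines mark rank 5321. MED16 and skd nearly coincide at 2597 and 2551 in replicate 1, and MED20 lies past both lines at 6023 and 8061.

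Narrow peaks were frequent. Only 4 of the 13 Mediator peaks, those of MED10, MED20, MED23 and Cdk8, had a width of 436 bp, against 69.1% of all strongest promoter peaks, and the other 9 were from 127 to 408 bp wide. Across the whole list, 10.8% of optimal peaks above a signal of 200 and 99.1% of those below 100 were 436 bp wide. Peaks with signals between these limits were not counted apart. Among the 9 narrower Mediator peaks, the stronger ones were not the narrower ones. MED16, MED17 and skd, with signals of 145, 143 and 146, were 127, 144 and 161 bp wide. The MED30 peak, with a signal of 533, was 408 bp wide.

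Motif 1, the site of the promoter factor M1BP, was searched as its core GGTCACAC on both strands within 50 bp of each summit. It was found at 3 of the 13 Mediator summits, those of MED10, MED20 and MED23, and at 3.17% of all promoter summits. These 3 genes had the lowest signals of the 13. Their summits were 3 of the 5 Mediator summits within 30 bp of a protein-coding TSS; those of MED6 and skd lay as close without the core. Among all promoter summits, the core was present at 2.19% of those ranked 1 to 1330 and 4.40% of the 909 that fell among the 1330 weakest optimal peaks, and at 9.48% of those within 30 bp of a protein-coding TSS. The TATA box TATAAA was present at MED17, MED27 and Cdk8 (12.9% of all promoter summits), the FOXO site GTAAACA at MED20 (3.62%) and the Zelda site CAGGTAG at MED23 (0.555%). No Mediator summit held the DRE TATCGATA (4.84% of all promoter summits), the CRE half-site TGACGT (2.67%), the E-box CAGCTG (6.98%), the GAGA run GAGAGAG (2.19%), the palindrome TTGCGCAA, bound by C/EBP proteins (0.0793%), or the core of Ohler motif 7, TGGTATTT (1.96%). No motif lay within the letters of another.

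Across the promoters themselves, from 250 bp before to 50 bp after any TSS, DRE and Motif 1 were frequent among Mediator genes. DRE was present at 8 of 29 (27.6%), against 10.2% of all protein-coding genes, namely MED7, MED8, MED9, MED17, MED18, MED25, MED26 and MED28. The Motif 1 core was present at 9 (31.0%), against 8.71%, namely MED8, MED10, MED11, MED15, MED19, MED20, MED22, MED23 and MED24. Together 16 of 29 genes held at least 1 of them (55.2%, against 17.7% of all genes), and MED8 held both. A promoter peak was present at 6 of these 16 (37.5%), against 51.6% of all genes with either motif. Of the 13 Mediator genes with neither, 7 had a peak (53.8%), against 25.7% of all genes with neither. These Mediator shares rest on 16 and 13 genes and have no interval, and their difference was not tested. None of the shares in this paragraph was split by head-to-head layout.

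Other genes of the transcription machinery had promoter peaks at 29 of 44 (65.9%, exact 95% Clopper-Pearson interval 50.1 to 79.5), against the background of 30.3%, which lay below the interval. Of the RNA polymerase II subunit genes, 6 of 12 had a peak, led by Polr2H (signal 415), Polr2F (349) and Polr2B, for the second largest subunit (209). Polr2A, for the largest subunit, had none. Of the genes of TFIID, the complex that recognises core promoters, 9 of 15 had a peak, led by Taf4 (311), Taf7 (134) and Taf1 (106), and Tbp had none. Of the other general factors, 14 of 17 had a peak, led by Ssl1 of the TFIIH complex (1542, shared with Chro), the TFIIA gene TfIIA-S (324) and Tfb5 of TFIIH (217). The median signal was 203 for the polymerase genes with a peak, 94.2 for those of TFIID and 127 for the other factors. Over all 29 genes it was 119, against 138 for all genes with a promoter peak. Head-to-head neighbours were present at 29 of these 44 genes (65.9%), and 21 of those 29 had a peak, against 51.1% of all genes with such a neighbour. The remaining machinery genes with a peak had no such neighbour, a layout in which 18.5% of all genes had a peak. Taf10 and Taf10b were both counted for the same peak. When a summit counted only for its nearest gene, 17 of the 44 had a peak, against 22.2% of all genes.

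The Mediator gene ix, which encodes MED29 and lies outside the symbol rule, had a promoter summit with a signal of 321 at rank 417 (2R, 11359022 to 11359321). Its ranks were 431 in replicate 1 and 434 in replicate 3. The summit lay 986 bp downstream of the ix TSS, beyond the end of the gene, and 1 bp upstream of the TSS of CG12384.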

How the data were processed

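ChIP-seq peak lists on the dm6 build were used as deposited. Per the notes deposited with the files, the authors called each replicate from its alignments and a further file that also entered the control-normalized tracks, called both replicates together, and made the optimal list from these by an irreproducible discovery rate (IDR) threshold. The aligner and the peak caller were not given in the sources used here. Signal per call came from the authors' caller, on a scale set by its input reads, so ranks were compared within a list. The deposited −log10 q was read only for calls below the optimal list. Read depth is not given in the files, so no depth-based interval could be made. The pooled list and each replicate list held 30000 calls. The dm3 lists were not used.

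Genes and TSSs came from the Ensembl release 115 annotation of BDGP6, without transposable elements, and sequences from the Release 6 assembly, whose arms contained every peak. A gene counted if at least 1 of its TSSs was 1000 bp or less from a summit. Replicate values were those of the strongest call overlapping a peak by at least 1 bp. Exact Clopper-Pearson intervals at 95% were given for the main shares of genes with a promoter peak and for the Mediator shares by head-to-head layout. Other shares have no interval. With 1 group of 2 replicates no test was made. The members and gene lists were chosen with earlier results of these data known. Every member was described; of each other list, the 3 genes with the highest signal were named, and Polr2A and Tbp were added after their values were seen. Alternatives were other windows, the outermost TSS, the nearest gene, a stricter and a looser list, and each replicate alone. The counting was tested on simulated data. Python 3.11.15, pandas 2.3.3 and SciPy 1.17.1 were used.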

Additional observations from a re-analysis of the deposited data

How the results depend on the processing

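The count of 13 Mediator genes with a promoter peak was 12 with a 500 bp window (MED15 lost; 27.0% of all genes had one) and with the outermost TSS alone (MED6 lost; 28.7% of all genes), and 13 with a 2000 bp window (35.3% of all genes). It was 9 in a stricter list, the 2660 optimal peaks of highest signal, where MED10, MED20, MED23 and Cdk8 were lost; there 17.5% of all genes had one. By nearest gene alone it was 7 (22.2% of all genes), and over the first 10000 pooled calls, an alternative added after the data were seen, it was 20 (43.7%). From the 5321 calls of highest signal of each replicate alone it was 12 to 13 (29.6 to 30.4% of all genes). That cut was set to the length of the optimal list. Without replicate 1, MED10, MED20, MED23 and Cdk8 were lost and MED1, MED9 and kto gained. Without replicate 3, MED10 and MED20 were lost and MED31 and CycC gained. MED4, MED7, MED16 and MED17 had a peak under all 8 of these alternatives. The number sharing their strongest peak ranged from 8 to 13. The median signal was 264 in the stricter list, 143 by nearest gene alone and 199 with ix added. It was 77.7 to 102 from a single replicate, whose scale differs from that of the pooled list. Of the 44 transcription machinery genes, 14 had a peak in the stricter list, 17 by nearest gene alone and 26 to 27 from a single replicate. No paired analysis was possible because there was 1 group. Read depth is unknown. A gene without a peak had no promoter summit in the optimal list, and most such Mediator genes had a call below that list.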
